A study of Mus musculus with 6 samples.

Results

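The Car4 capillary cells of the developing mouse lung, also called aerocytes, were examined in 2 single-cell libraries of sorted Cxcl12-DsRed lung cells, 1 from embryonic day 18.5 (E18.5) and 1 from postnatal day 8 (P8). They were taken as cells with at least 700 genes, 0.5 to 10% mitochondrial counts, at least 3 unique molecular identifiers (UMIs) of Pecam1, Cdh5 and Cldn5, at most 2 of Col1a1 and Col3a1, and at least 2 of Car4. Cells with more than 1 UMI of the arterial genes Gja4 and Stmn2, or more than 1 of the proliferation genes Mki67 and Top2a, were left out. In these 2 libraries the rule found 285 cells, and the 6 libraries of the series hold 63659 barcodes in all. Of these, 232 were among 9083 endothelial cells at E18.5, a share of 2.55% (95% exact binomial interval 2.24 to 2.90), and 53 were among 8291 at P8, a share of 0.639% (0.479 to 0.835). Without the limits on arterial and proliferation genes the shares went the other way, with 9.29% in the earlier library (interval 8.70 to 9.91) and 21.5% in the later (20.6 to 22.4), so the fall in the share of selected cells is that of cells within those limits. The comparator was the endothelial cells of the same library with no Car4 UMI and the same limits, 1363 at E18.5 and 240 at P8, called Car4-zero cells here. Car4 itself stood at 918 counts per 1000000 UMIs (CPM) in the E18.5 cells and at 1024 CPM in the P8 cells, since the cells were selected on these UMI counts, among them Car4, and this level is not a finding.

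The alveolar capillary bed is built of general capillary cells, which can divide and give rise to other endothelial cells, and of aerocytes, large thin cells that lie against type 1 alveolar epithelium where gas is exchanged. Aerocytes arise around birth and depend on VEGF-A from the alveolar epithelium. They are known for carbonic anhydrase 4 (Car4), which is anchored at the cell surface and converts carbon dioxide and bicarbonate, for the endothelin receptor Ednrb, and for the peptide apelin (Apln), whose receptor Aplnr marks general capillary cells.

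Both libraries came from Cxcl12DsRed/+ mice, in which the red fluorescent protein replaces 1 copy of the arterial chemokine gene Cxcl12, with the lungs of several animals mixed for each time point. Cells negative for CD45 and EpCAM were sorted as DsRed-positive, either CD31-positive or CD31-negative, so the capillary cells here are those that carried reporter signal and need not stand for all aerocytes of the lung. The other 4 libraries of the series are sorts at E13.5 and E15.5 and whole E18.5 lungs labelled as Cxcl12 homozygous null and heterozygous control. Each group is 1 library, so no difference has a replicate check and no p-value is given. Bracketed ranges are exact 95% intervals for counting error only, Poisson for levels, binomial for shares, and for ratios the conditional binomial interval of the 2 counts without the pseudocount.

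Sequencing gave 65056925 UMIs over 10020 barcodes at E18.5 and 63746333 UMIs over 9069 barcodes at P8. The 2 libraries shared 25 barcode sequences, and none of the 285 cells had the same barcode as another. The Car4 cells were deeper than the Car4-zero cells, with a median of 5771 against 4782 UMIs at E18.5 and 4513 against 3136 at P8. They were shallower than the endothelial cells with at least 2 Car4 UMIs and no other limits, which had medians of 7163 and 10134.5 UMIs. In total the Car4 cells gave 1429111 UMIs at E18.5 and 282096 at P8, so the P8 levels rest on fewer molecules. Doublet scoring called 0 and 2 cells at its automatic threshold, which was taken as not having worked. With the 573 E18.5 and 507 P8 cells of highest score marked instead, 3 of the 232 Car4 cells and 0 of the 53 were among them.

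Most endothelial cells with Car4 were left out by the limit on arterial genes. Of the 844 endothelial cells with at least 2 Car4 UMIs at E18.5, 232 (27.5%) met every limit, and of 1780 at P8 only 53 (2.98%) did. Stmn2, a microtubule regulator, left the fewest, since 88 of the 1780 P8 cells had at most 1 Stmn2 UMI while 591 had at most 1 UMI of Gja4, the gap junction protein connexin 37. In the P8 cells with 11 or more Car4 UMIs, 1.29% were within the limit, which is set in UMIs per cell and so also depends on depth. Per UMI these cells had less of both genes than P8 endothelial cells without Car4, at 1475 against 1805 CPM of Stmn2 and 422 against 1050 CPM of Gja4. The 53 cells are a small share of the cells with Car4 in that library, and the main results are also given with both limits lifted.

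**Figure D1:**
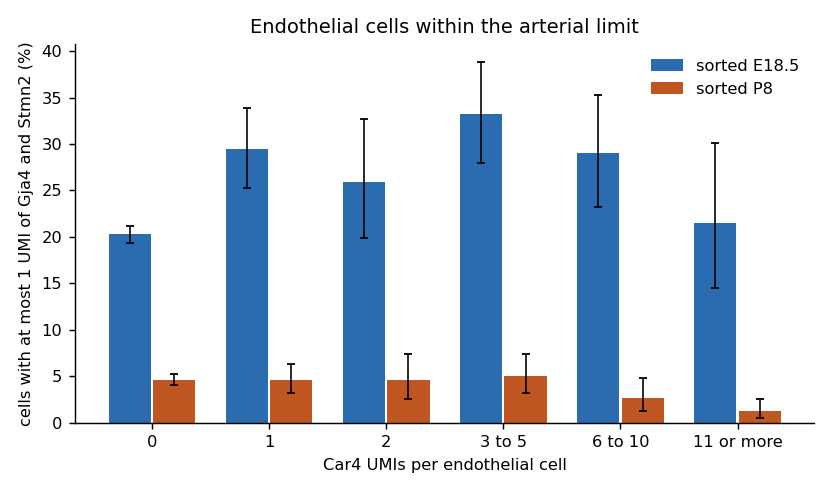
Bars give the percentage of endothelial cells with at most 1 UMI of Gja4 and Stmn2 together (y axis) by the number of Car4 UMIs in the cell (x axis) for the sorted E18.5 (blue) and P8 (orange) libraries, with exact 95% binomial intervals. At P8 the share went from 4.65% of cells without Car4 to 1.29% of cells with 11 or more Car4 UMIs, and at E18.5 it lay between 20.3% and 33.2%.

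At the Car4 threshold itself, the 117 E18.5 cells with a single Car4 UMI and all other limits met had intermediate levels of Ednrb and Emp2. Ednrb stood at 182 CPM in cells with no Car4 UMI, 455 CPM with 1, 579 CPM with 2 (46 cells) and 813 CPM with 3 or more (186 cells). Emp2, a tetraspan membrane protein, went through 131, 574, 703 and 1124 CPM over the same cells. At P8 the step lay elsewhere. The 30 cells with 1 Car4 UMI had 124 CPM of Emp2, no more than the 184 CPM of the Car4-zero cells, and the 13 cells with 2 had 673 CPM (474 to 927). Kitl, in contrast, was already at 553 CPM in the P8 cells with 1 Car4 UMI, against 330 CPM in the Car4-zero cells.

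**Figure D2:**
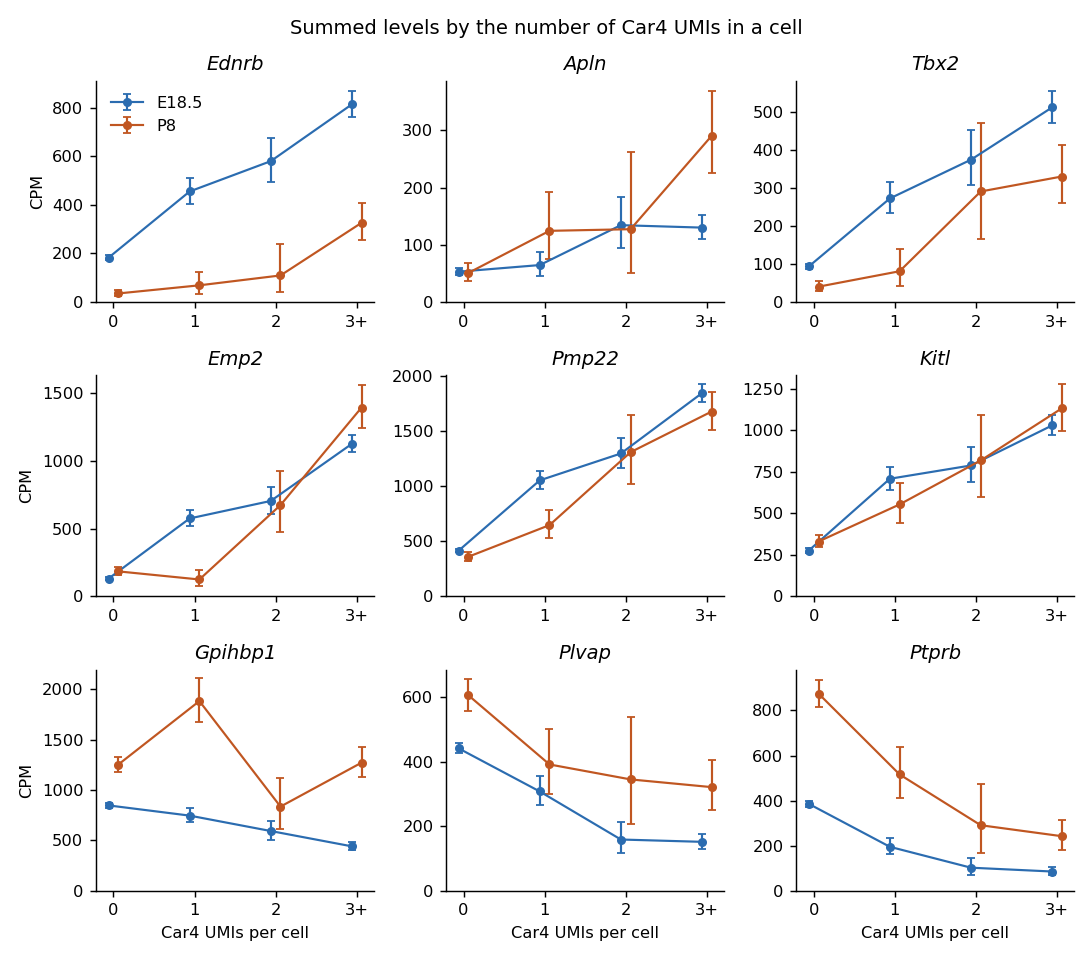
Points give the level in CPM (y axis) summed over the cells with 0, 1, 2 or at least 3 Car4 UMIs (x axis) that met the other limits, at E18.5 (blue) and P8 (orange), with exact 95% Poisson intervals for counting error. The upper 6 genes are higher in cells with 3 or more Car4 UMIs than in cells with 0 in both libraries, Plvap and Ptprb are lower, and Gpihbp1 is lower at E18.5 but at P8 stands at 1273 against 1254 CPM.

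The marker genes lie on separate chromosomes. In GENCODE vM21 (GRCm38) Car4 is on chromosome 11 from 84957786 to 84966044 (plus strand), Ednrb on chromosome 14 from 103814625 to 103844402 (minus strand) and Apln on chromosome X from 48025146 to 48034853 (minus strand). The 250 bases before the RefSeq start of each (GRCm38.p6) are shown because these are the genes by which the cells are recognised. Capitals mark CCGGAA, the core bound by ETS factors of the endothelium, on either strand. For Ednrb the bases fall in an intron of the longer GENCODE transcript.
Car4, chr11:84957504-84957753, plus strand: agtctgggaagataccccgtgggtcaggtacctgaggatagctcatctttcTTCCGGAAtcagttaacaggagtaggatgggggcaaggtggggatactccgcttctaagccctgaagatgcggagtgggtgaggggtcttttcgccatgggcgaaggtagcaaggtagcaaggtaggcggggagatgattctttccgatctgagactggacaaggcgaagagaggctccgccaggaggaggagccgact
Ednrb, chr14:103843702-103843951, minus strand: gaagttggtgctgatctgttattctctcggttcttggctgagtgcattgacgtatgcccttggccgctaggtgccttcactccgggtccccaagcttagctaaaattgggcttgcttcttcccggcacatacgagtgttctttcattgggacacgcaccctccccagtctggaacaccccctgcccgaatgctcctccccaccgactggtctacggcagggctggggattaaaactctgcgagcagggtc
Apln, chrX:48034854-48035103, minus strand: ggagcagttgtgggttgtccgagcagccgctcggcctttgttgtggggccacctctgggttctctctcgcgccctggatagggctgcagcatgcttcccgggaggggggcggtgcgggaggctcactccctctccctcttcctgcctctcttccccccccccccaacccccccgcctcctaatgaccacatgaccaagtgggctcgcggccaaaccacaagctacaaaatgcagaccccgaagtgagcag

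In the Car4 stretch the capitals are 1 palindromic run in which CCGGAA is read on both strands. Neither GGTGTG, a T-box motif, nor TGTTTAC, the forkhead core, was in any of the 3 stretches. Of 14 genes searched, which were Car4, Apln and the 12 ranked highest in both libraries below, Ednrb among them, 10 had an entry. CCGGAA was before 3 of them, Car4, Bpgm and 1 of the starts of Pmp22, GGTGTG before 1, Lhfp, and TGTTTAC before none. Among 27025 genes with such an entry the shares were 13.6% for CCGGAA, 18.3% for GGTGTG and 3.54% for TGTTTAC, both strands read.

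Against the Car4-zero cells, the defining receptor and peptide were both higher. Ednrb, the receptor through which endothelin acts on endothelium, stood at 767 CPM (722 to 814) in the Car4 cells and 182 CPM (172 to 192) in the Car4-zero cells at E18.5, a log2 ratio of 2.07 (1.96 to 2.19). At P8 both levels were lower, 284 CPM (225 to 353) and 34.9 CPM (24.0 to 49.0), and the log2 ratio was 3.004 (2.42 to 3.65). Apln was at 131 against 52.9 CPM at E18.5, a log2 ratio of 1.30 (1.05 to 1.56), and at 259 against 50.8 CPM at P8, 2.34 (1.80 to 2.91). The intervals of the 2 populations did not overlap for either gene in either library. At least 1 UMI of Ednrb or Apln was found in 205 of the 232 cells and in 36 of the 53.

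When every cell was thinned to 2000 UMIs, which left out 5 of the 232 and 7 of the 53 cells as too shallow, Ednrb was detected in 70.0% of Car4 cells (63.6 to 75.9) and 20.8% of Car4-zero cells at E18.5. It was detected in 41.3% (27.0 to 56.8) and 5.41% at P8. Non-endothelial cells of the same libraries, of which 222 and 63 were deep enough, had it in 13.96% and 4.76%. Without thinning, the shares of Car4 cells were 86.2% and 54.7%. Apln was seen in 24.2% against 9.22% at E18.5 and in 19.6% against 6.49% at P8, and in none of the non-endothelial cells after thinning. For these counts of 0 the exact upper limits were 1.65% and 5.69% of cells. Without thinning, 1.52% of the P8 non-endothelial cells had an Apln UMI. Cells with both genes made up 19.4% (14.5 to 25.1) of Car4 cells at E18.5 and 17.4% (7.82 to 31.4) at P8, and cells with neither 25.1% and 56.5%. At this depth most single cells thus lacked 1 or both of the genes.

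Of the aerocyte marker list, which held 20 genes, 13 were at 50 CPM or more at E18.5, and 9 of these were at least 2-fold higher in Car4 cells and none lower, where 2.87% of the 3484 genes tested were 2-fold higher. At P8, 13 of 14 were 2-fold higher and none lower, beside 3.79% of 3803 genes. Of these, 2 of the 9 (Chst1 and Tmcc2) and 5 of the 13 (Ednrb, Tbx2, Chst1, Rprml and Tmcc2) reached 50 CPM in the Car4 cells alone. Such genes were admitted through the population in which they were higher, as were 50 of the 100 genes higher and 54 of the 70 lower at E18.5 and 94 of 144 and 155 of 186 at P8, so the counts of this and the other lists are descriptions and nothing is read from their distance to the share over all genes. Over all P8 genes 144 were higher and 186 lower, and with the median ratio of 0.07 removed 115 and 231, or 33.2% on the higher side in place of 43.6%. The list had median log2 ratios of 1.496 and 2.01 at the 2 times, where all tested genes had 0.02 and 0.07. The list was drawn up with earlier results of these data known, so its direction is a description. Hpgd, which inactivates prostaglandins, was the P8 gene short of 2-fold, with 1064 against 1022 CPM.

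Emp2 stood at 1040 against 131 CPM at E18.5 and 1251 against 184 CPM at P8, log2 ratios of 2.99 (2.87 to 3.11) and 2.76 (2.50 to 3.04). Its relative Pmp22 was at 1736 against 415 CPM and 1606 against 360 CPM. Both are small membrane proteins of 1 family. Kitl, the ligand of the receptor Kit, was at 981 against 276 CPM and 1071 against 330 CPM. Kit itself went the other way, at 65.8 against 160 CPM at E18.5 and 56.7 against 208 CPM at P8. Ligand and receptor were thus on opposite sides within the limits. With the limits lifted on both sides Kit was no longer 2-fold lower at either time. The apelin receptor Aplnr was at 65.1 against 118 CPM and 81.5 against 127 CPM, less than 2-fold lower, and the P8 interval of its log2 ratio included 0 (-1.35 to 0.01).

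The transcription factor Tbx2 stood at 485 CPM (449 to 522) against 93.4 CPM at E18.5 and at 323 CPM (260 to 396) against 40.2 CPM at P8. Its relative Tbx3 was at 421 against 200 CPM and 386 against 198 CPM, log2 ratios of 1.07 and 0.96. Of the transcription factors listed, 3 of 17 tested were 2-fold higher at E18.5 (Tbx2, Tbx3 and Hopx) and none lower, where 2.87% and 2.01% of all genes were. At P8 Tbx2 alone of 18 was 2-fold higher and Foxo1 and Gata6 were lower, against 3.79% and 4.89% of all genes. Foxf1, a forkhead factor needed for lung capillaries, was at 653 against 367 CPM at E18.5 and 925 against 834 CPM at P8. Among the factors tested, Tbx2 alone was past 2-fold at both times. At P8 it reached 50 CPM in the Car4 cells alone, and Foxo1 and Gata6 did so in the Car4-zero cells alone, so this is a description.

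Kdr, the main receptor for VEGF-A, was at 1060 CPM (1007 to 1115) against 555 CPM at E18.5, just short of 2-fold with a log2 ratio of 0.93, and at 1234 CPM (1107 to 1370) against 441 CPM at P8, with 1.48. The other VEGF receptor of blood endothelium, Flt1, differed little, at 283 against 263 CPM and 471 against 373 CPM. The co-receptor Nrp1 was at 916 against 534 CPM and 645 against 446 CPM. Vegfa, the ligand, was low in Car4 cells, at 12.6 against 27.7 CPM and 60.3 against 245 CPM. Among the genes of the VEGF list at 50 CPM or more, which left out Vegfa at E18.5, Nrp2 was 2-fold lower at E18.5, and Kdr was higher and Vegfa lower at P8.

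Other genes of the aerocyte list were also higher in both libraries. Prx, or periaxin, was at 341 against 120 CPM and 209 against 67.7 CPM. Chst1, a sulfotransferase, was at 95.2 against 15.2 CPM and 99.3 against 9.52 CPM. Igfbp7, a secreted binding protein of vessels, was the most abundant of the list at P8, with 3470 CPM (3256 to 3695) against 1658 CPM. Its E18.5 levels were 1729 against 1005 CPM, a log2 ratio of 0.78. Cyp4b1, a cytochrome P450, was 2-fold higher at P8 only, with 340 against 93.1 CPM after 420 against 235 CPM at E18.5. Whether these ratios differ between the times could not be tested with 1 library each.

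Over all genes, 3189 were at 50 CPM or more in both libraries, and 50 of them (1.57%) were at least 2-fold higher in Car4 cells in both and 30 (0.941%) lower in both. The 50 were 61.0% of the 82 higher at E18.5 and 47.2% of the 106 higher at P8, and the 30 were 56.6% of the 53 lower at E18.5 and 33.0% of the 91 lower at P8. No gene was 2-fold higher in 1 library and 2-fold lower in the other. Ranked by the smaller of the 2 ratios, the 12 highest included Ednrb, Tex14, Emp2, Chst1, Tbx2, Sirpa, Pmp22, Cd24a, Ptpn4, Bpgm and Lhfp. Tex14, known for its role in intercellular bridges of germ cells, had 86.1 against 9.59 CPM and 85.1 against 8.46 CPM, and at P8 it rested on 24 UMIs in 13 cells. Sirpa, the receptor for CD47, was at 75.6 against 15.5 CPM and 81.5 against 7.41 CPM. Cd24a stood at 247 against 59.5 CPM and 230 against 50.8 CPM. Bpgm, which makes 2,3-bisphosphoglycerate, the molecule that lowers the oxygen affinity of haemoglobin in red cells, was at 80.5 against 20.5 CPM and 138 against 23.3 CPM, but with the limits lifted on both sides it was at 66.0 against 45.1 CPM at E18.5, short of 2-fold. All 12 had at least 23 UMIs in the Car4 cells of each library, and the highest share from 1 cell was 29.2%, for Tex14 at P8.

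Of the general capillary genes tested at E18.5, 6 of 14 were at least 2-fold lower and 1 was higher, where 2.01% of all tested genes were 2-fold lower. At P8 4 of 14 were lower and none higher, against 4.89% of all genes. The median log2 ratios of the list were -0.85 and -0.54. Ptprb, the endothelial phosphatase that restrains the receptor Tek, was at 88.9 CPM (74.1 to 106) against 386 CPM at E18.5 and at 252 CPM (197 to 317) against 875 CPM at P8. Edn1, the ligand of Ednrb, was at 58.1 against 166 CPM and 67.4 against 367 CPM. Within the limits the receptor was therefore higher and its ligand lower in the same cells at both times. With the limits lifted on both sides the P8 ratio of Ednrb fell short of 2-fold. Tek was at 27.3 against 95.5 CPM at E18.5 and at 121 against 169 CPM at P8. Plvap, which forms the diaphragms of fenestrae and caveolae, was at 153 against 442 CPM and 326 against 606 CPM.

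Gpihbp1, which carries lipoprotein lipase to the capillary surface and is a common marker of general capillary cells, differed little between the populations at P8. It was at 472 CPM (437 to 509) against 848 CPM (827 to 870) at E18.5, a log2 ratio of -0.85, and at 1188 CPM (1064 to 1322) against 1254 CPM (1183 to 1327) at P8, where the intervals overlapped. A single cell gave 24.5% of the P8 UMIs. After thinning, 48.5% of Car4 cells and 68.7% of Car4-zero cells had Gpihbp1 at E18.5, and 71.7% and 75.1% at P8, against 1.35% and 1.59% of non-endothelial cells. Cells with UMIs of both Car4 and Gpihbp1 were thus found at both times. Sema3c, a secreted guidance protein, was the member of the general capillary list that was 2-fold higher at E18.5, at 56.0 against 25.1 CPM.

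Of the arterial genes outside the rule, 5 of 7 tested were 2-fold lower at E18.5, where 2.01% of all genes were, and 8 of 10 at P8, beside 4.89%, with none higher. Of these, 4 of the 5 and 5 of the 8 reached 50 CPM in the Car4-zero cells alone, so the counts are not support for a lower list. Cxcl12, the gene behind the reporter, was at 25.2 CPM (17.6 to 34.9) against 69.0 CPM at E18.5 and at 67.4 CPM (40.6 to 105) against 432 CPM at P8. In endothelial cells with no Car4 UMI and at least 4 UMIs of Gja4 and Stmn2 together it was at 1926 and 1658 CPM. The elastic fibre genes Eln and Fbln5 were at 36.4 against 246 CPM and 13.99 against 130 CPM at E18.5. At P8 they stood at 78.0 against 525 CPM and 24.8 against 187 CPM, and with Car4-zero cells that had at least 2 Gpihbp1 UMIs as the comparator the P8 log2 ratios were -0.31 (-1.08 to 0.40) for Eln, 0.35 (-1.21 to 1.79) for Fbln5 and 0.48 (-2.18 to 2.87) for Mgp, a matrix protein at 10.6 against 220.1 CPM by the main comparator. Fbln5 rested on 7 and Mgp on 3 UMIs in the P8 Car4 cells, so at P8 the counts did not separate either gene, nor Eln, from Car4-zero cells with Gpihbp1. At E18.5 the same comparator gave -1.03 (-1.49 to -0.62) for Eln, -1.61 (-2.39 to -0.99) for Fbln5 and -1.01 (-2.06 to -0.18) for Mgp. The limits were the same on both sides, but Gja4 itself was at 19.6 against 47.7 CPM and 21.3 against 82.5 CPM, so more Car4-zero cells held the 1 UMI allowed, and the part of this in the differences was not tested.

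Genes of type 2 alveolar epithelium were among the lower ones, while of 3 type 1 genes tested at E18.5 Hopx and Clic5 (432 against 213 CPM) were 2-fold higher and Ager was lower, where 2.87% and 2.01% of all genes were. At P8 none of 5 type 1 genes was higher and Ager, Aqp5 and Cldn18 were lower, against 3.79% and 4.89%. All 3 reached 50 CPM in the Car4-zero cells alone, as Ager did at E18.5, so these counts are descriptions and nothing is read from them. Sftpc, the surfactant protein of type 2 alveolar cells, was at 9.10 against 860 CPM at E18.5 and 78.0 against 14528 CPM at P8. In the P8 Car4-zero cells 1 cell held 13719 of the 13732 UMIs. Of the 9 type 2 genes at 50 CPM or more at P8, 8 reached it in the Car4-zero cells alone, and so did both at E18.5, so no count over this list is given. At least 3 UMIs of type 2 genes were found in 7 Car4-zero cells at E18.5, and at P8 in 1 Car4-zero and 1 Car4 cell. Without those cells Sftpc was at 9.10 against 17.7 CPM and 17.8 against 14.9 CPM. The macrophage and type 2 gene Lyz2 was at 0 UMIs in Car4 cells of both libraries and 72.0% and 99.9% of its Car4-zero UMIs came from 1 cell. Sftpc, Lyz2, Ctsh, Apoe and Ager were among the 12 ranked lowest in both, with Fbln5, Eln, Fbln2, Ptprb, Tmem2, Pcsk5 and Tns1. For Ager, 96.8% of the P8 Car4-zero UMIs were from 1 cell, and without the cells with type 2 genes its log2 ratio was 1.18 at E18.5 and 1.11 at P8. The defining pericyte and smooth muscle genes were near the floor, at a summed 27.3 and 17.7 CPM in Car4 cells.

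With the limits on Gja4, Stmn2, Mki67 and Top2a lifted on both sides, 844 Car4 cells were set against 7787 Car4-zero cells at E18.5 and 1780 against 5787 at P8. Emp2 then had log2 ratios of 3.24 and 3.39, Tbx2 3.11 and 3.07, Apln 2.48 and 3.82, and Kdr 1.37 and 1.59. Ednrb was 2.54 at E18.5 and 0.74 at P8. At P8 the cells without Car4 that had at least 4 UMIs of Gja4 and Stmn2, as for Cxcl12 above, carried Ednrb at 162 CPM. The Car4-zero cells within the limits had 34.9 CPM. The P8 ratio of Ednrb fell short of 2-fold against Car4-zero cells without the limits, while Emp2, Tbx2, Apln and Kdr were past it at both times. Lifting the limits also changed the Car4 side at P8, from 53 to 1780 cells, and the part of either side was not tested. Kit was then at -0.14 and -0.17 and Aplnr at 0.07 and -0.11, so these 2 general capillary genes were lower by this measure only slightly or not at all. Of the 7787 cells at E18.5, 5344 had at least 4 UMIs of Gja4 and Stmn2, so these ratios are largely against cells of that kind. Without thinning, 81.0% of the 5344 had a Cxcl12 UMI and 44.6% a Gpihbp1 UMI, so they need not all be arterial. After thinning, 0.85% of these cells had Apln and 2.99% Aplnr, against 9.22% and 18.6% of the Car4-zero cells within the limits. The part of this in the ratios was not tested.

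Between the time points the Car4 cells were compared with the Car4-zero cells as a guide to what the 2 libraries shared. Of 3702 genes tested in Car4 cells, 254 (6.86%) were at least 2-fold higher at P8 and 181 (4.89%) lower. In Car4-zero cells the shares were 6.35% and 3.73% of 3731 genes. Xist, whose level depends on the sexes of the mixed animals, was at 229 CPM in E18.5 and 1106 CPM in P8 Car4 cells, and time, library and animals cannot be told apart. The median log2 ratio of all tested genes was 0.11, and with that shift removed 199 genes were higher and 229 lower, which is 46.5% of the genes past 2-fold on the higher side in place of 58.4%.

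Of the aerocyte list, 3 of 14 genes were 2-fold higher at P8 and 1 lower, where 6.86% and 4.89% of all genes were. In Car4-zero cells 1 of 11 was higher and 3 were lower, beside 6.35% and 3.73% of all genes. Of these 3, Ednrb and Tbx2 reached 50 CPM at E18.5 alone. In Car4 cells Ednrb was the lower one, at 284 CPM after 767 CPM, a log2 ratio of -1.43 (-1.78 to -1.11), and in Car4-zero cells it went from 182 to 34.9 CPM. Apln was at 259 CPM after 131 CPM, 0.98 (0.57 to 1.38), and in Car4-zero cells it was at 50.8 after 52.9 CPM. The share of Car4 cells with an Apln UMI did not rise with this level, at 48.3% in E18.5 and 49.1% in P8 cells, or 24.2% (18.8 to 30.3) and 19.6% (9.36 to 33.9) after thinning. Rprml, a reprimo-like protein, was at 63.8 CPM in P8 and 3.50 CPM in E18.5 Car4 cells, from 18 and 5 UMIs, against 2.12 and 0.56 CPM in Car4-zero cells. Lifting the limits gave Rprml a log2 ratio of 4.39 over time, Apln one of 0.76 and Ednrb one of -1.23. Pmp22, Kitl and Emp2 had log2 ratios of -0.11, 0.13 and 0.27 over time.

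General capillary genes stood higher in the P8 Car4 cells, 7 of 13 by at least 2-fold, against 6.86% of all genes, and none lower, with a median log2 ratio of 1.09. In Car4-zero cells 6 of 15 were higher and 1 lower, beside 6.35% and 3.73% of all genes, with a median of 0.82. Sema3c was at 546 CPM (463 to 639) after 56.0 CPM, and in Car4-zero cells at 385 after 25.1 CPM. Gpihbp1, Cd36, Ptprb, Tek, Plvap and Itga1 were the others, with log2 ratios from 1.09 to 2.12. For Gpihbp1 the ratio was 1.33 in Car4 cells and 0.56 in Car4-zero cells, and for Tek 2.12 and 0.82. A single P8 Car4 cell gave a sizeable share of the Gpihbp1 UMIs, as stated above, and the ratio without that cell was not computed. Hpgd stood at 1064 after 150 CPM in Car4 cells and at 1022 after 84.6 CPM in Car4-zero cells, a similar level in both populations.

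Of the 10 genes ranked highest at P8, Gdf15, Gm8797, Abi3bp, Wfdc1, Nme2, Rprml, Dusp8, Gm12216, Rbp7 and Plat, several were as high in Car4-zero cells. Gm8797 was at 2099 after 77.0 CPM and at 1797 after 71.8 CPM, and Abi3bp, an extracellular matrix protein, at 110 after 4.20 CPM and 109 after 4.51 CPM. Plat, the tissue plasminogen activator, was at 124 CPM (86.4 to 173) after 10.5 CPM in Car4 cells and 88.9 after 12.3 CPM in Car4-zero cells. Nme2 shares 298 identical end bases with the read-through gene Gm20390, so its level is uncertain. Rbp7 had all of its 131 UMIs in 1 cell, and Gdf15, a stress cytokine, 52.0% of 25 UMIs. The fatty acid carrier Fabp4 was at 4346 CPM in P8 Car4 cells, but all 1226 UMIs were of 1 cell.

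**Figure D3:**
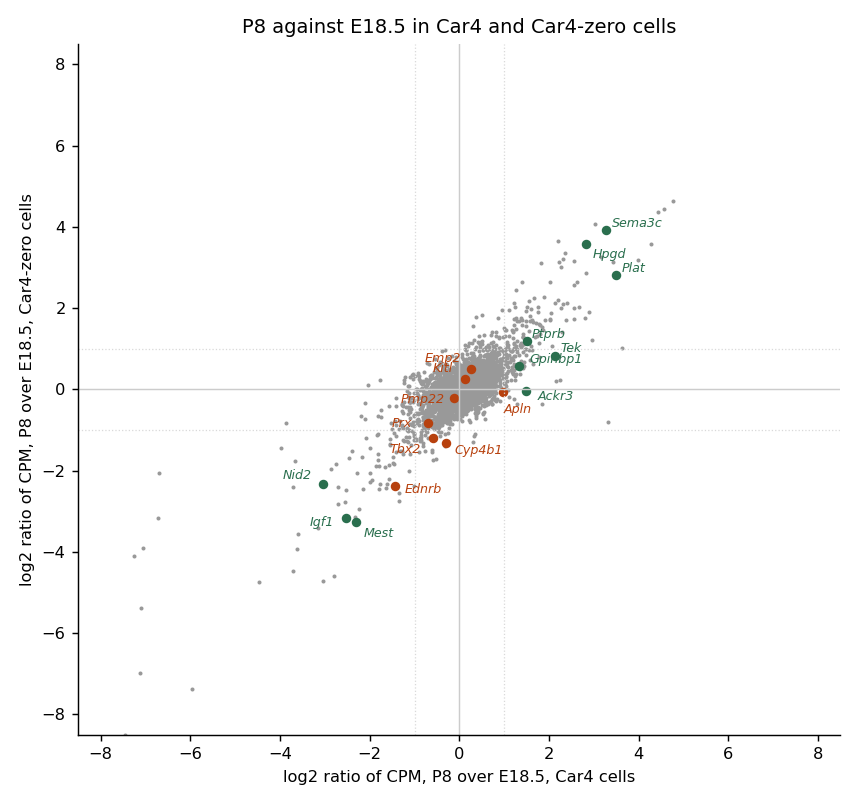
Each point is 1 of 3335 genes, with the log2 ratio of CPM at P8 over E18.5 in Car4 cells on the x axis and in Car4-zero cells on the y axis, and dotted lines at 2-fold. Ednrb, Apln, Emp2, Tbx2, Pmp22, Kitl, Prx and Cyp4b1 are orange and other named genes green. Sema3c, Hpgd and Plat are high in both populations and Mest, Igf1 and Nid2 low in both. Apln and Ackr3 are at 0.98 and 1.49 on the x axis and near 0 on the y axis, and 1 point beyond the axes is drawn at the edge.

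The 10 genes ranked lowest at P8 had no UMI in the 53 cells, so their differences are lower bounds set by 3 UMIs. They were Gpx3, Sox9, Ccl21a, Adm, 0610010K14Rik, Clca3a1, Egln3, Gsn, 1500009L16Rik and Zbtb16. Gpx3, the secreted glutathione peroxidase, was at 136 CPM (118 to 157) in E18.5 Car4 cells, 195 UMIs in 118 cells, and was at least 12.8-fold lower at P8. It was at 39.8 CPM in E18.5 and 0 UMIs in P8 Car4-zero cells. Sox9 was at 98.7 CPM at E18.5, at least 9.28-fold higher than at P8, and Adm, the vasodilator peptide adrenomedullin, at 80.5 CPM, at least 7.57-fold higher. Both were also higher in Car4 than in Car4-zero cells at E18.5, with log2 ratios of 1.71 and 1.66. Egln3, an oxygen-sensing prolyl hydroxylase, and Zbtb16, a glucocorticoid-responsive factor, had 66.5 and 52.5 CPM at E18.5, at least 6.25-fold and 4.93-fold higher, and similar E18.5 levels of 54.3 and 51.6 CPM in Car4-zero cells. In the 1780 cells without limits the log2 ratios over time were -3.89 for Gpx3, -2.89 for Sox9 and -2.84 for Adm. All 125 UMIs of Ccl21a were of 1 E18.5 cell, and 0610010K14Rik shares 300 identical end bases with Gm21988, so its level is uncertain.

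Of 6 fetal growth genes tested, 3 were at least 2-fold lower at P8 and 1 was higher, where 4.89% and 6.86% of all genes were. In Car4-zero cells 5 of 7 were lower and 1 was higher, beside 3.73% and 6.35% of all genes. Mest, an imprinted gene of fetal mesoderm, stood at 592 CPM in P8 cells after 2909 CPM, a log2 ratio of -2.30 (-2.53 to -2.07), Plagl1 at 14.2 after 50.4 CPM, and Grb10 at 67.4 after 148 CPM. Mest went from 2054 to 213 CPM in Car4-zero cells, so at P8 it was higher in Car4 cells by 1.47 on the log2 scale. Igf1 was at 10.6 after 63.7 CPM and Igfbp4 at 454 after 1105 CPM. The basement membrane gene Nid2 was at 21.3 after 180 CPM, whereas the collagen IV chains Col4a1 and Col4a2 stood at 1748 after 1763 and 1088 after 1204 CPM. Itgb5, an integrin subunit that was 3.13 log2 units higher in Car4 cells at E18.5, was at 39.0 CPM at P8 after 267 CPM, and it shares 208 identical end bases with Gm38317, so its level is uncertain.

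Ranked by how far the ratio over time in Car4 cells lay from that in Car4-zero cells, the genes were Gdf15, Rprml, Gm12216 and Fabp4 on the positive side and Sox9, Adm, Gsn and Meg3 on the negative side. Gdf15 and Fabp4 had most of their P8 UMIs in 1 cell, the 4 negative genes had 0 UMIs at P8, and Rprml and Gm12216 had 18 UMIs each at P8, spread over 12 and 14 cells. Gm12216 was at 63.8 after 4.20 CPM in Car4 cells and at 20.1 after 10.0 CPM in Car4-zero cells. With the limits lifted it was at 27.9 CPM in P8 Car4 cells and 30.5 CPM in Car4-zero cells, so its difference was not seen there. Ackr3, the scavenging receptor for CXCL12, was at 238 CPM (184 to 302) after 84.0 CPM in Car4 cells and at 113 after 115 CPM in Car4-zero cells. The signalling receptor Cxcr4 was rare, at 2.80 and 10.6 CPM in Car4 cells against 22.6 and 80.4 CPM in Car4-zero cells. At P8 the Car4 cells thus had less of the ligand and of Cxcr4, and more of Ackr3, than the Car4-zero cells within the limits. The P8 level of Cxcr4 rested on few UMIs, with 3.77% of Car4 cells holding any. Other comparators are not given here for this contrast.

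The 65 and 39 cells that met the same rule in the whole-lung E18.5 libraries labelled null and control were set against the Car4-zero cells of their own library, and since the genotypes in the labels and in the deposited names disagree, the 2 libraries were not compared with each other. All 12 genes ranked highest in the sorted libraries were higher in both, past 2-fold for 11 in the library labelled null and for 12 in the one labelled control, with median log2 ratios of 2.16 and 2.32, where 3.13% and 5.04% of all genes tested were 2-fold higher. Emp2 was at 318 against 38.9 CPM and 589 against 62.4 CPM, Tbx2 at 439 against 77.6 CPM and 478 against 81.0 CPM, and Ednrb at 408 against 153 CPM and 545 against 182 CPM. The 12 genes ranked lowest were lower in 12 and 9 cases, past 2-fold in 11 and 6, where 2.34% and 2.96% of all genes were. Among the 12 were Sftpc, Lyz2 and Ager, whose low rank in the sorted libraries rested largely on few Car4-zero cells. The count is therefore a description, and nothing about Car4 cells is read from it. The 3 exceptions in the library labelled control were epithelial genes on the opposite side to the main sorted ratios. Sftpc was at 9187 against 1612 CPM, a log2 ratio of 2.51, Ager had 1.56 and Ctsh 1.21. With the cells that held type 2 genes left out, the sorted ratios of Ager were 1.18 (E18.5) and 1.11 (P8). Ager was then on the same side as in the library labelled control, where cells with type 2 genes were not left out. In the library labelled null it was on the other side, with 0 UMIs in Car4 cells against 32.2 CPM in Car4-zero cells. With the cells with type 2 genes left out of the sorted libraries, Sftpc was at 0.25 in the P8 library. It was still lower in E18.5 Car4 cells, with 9.10 against 17.7 CPM. Plvap had log2 ratios of -2.36 and -2.38. The sorted E13.5 and E15.5 libraries held 0 and 3 cells that met the rule.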

How the data were processed

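Single-cell suspensions were run on the 10x Genomics 3' v3 chemistry. The authors deposited raw UMI counts per gene and cell barcode, made per the submitters' processing notes with Cell Ranger 3.1 on mm10, with Seurat 3.2.2 also named (the matrix headers state 3.0.2). Further deposited whole-lung matrices, named for the free-RNA correction tool SoupX, were not used. Members, gene lists and the ranking rule were chosen with earlier results of these data known. Counts were summed over the cells of a population and scaled to 1000000 UMIs (CPM) without pooling libraries. Log2 ratios used a pseudocount of 0.5 CPM, and genes at 50 CPM or more in either population were tested, a difference of at least 2-fold being counted. Genes in the text were those ranked 12 highest and 12 lowest by the smaller ratio of both libraries, 10 in each direction over time, 4 in each direction by the difference from Car4-zero cells, and members of 33 lists, and 1 ranked gene is not reported here. A fold against 0 UMIs used a floor of 3 UMIs. With 1 library per group no test was made, and intervals cover counting error only. Shares of cells were taken after thinning to 2000 UMIs. The ratio computation was tested on simulated data. Doublets were not removed, and their removal was an alternative. Identical ends were sought in 123 genes over their last 300 transcript bases, with a minimum of 60. Python 3.11.15, numpy 2.4.6, scipy 1.17.1, pandas 2.3.3 and scanpy 1.11.5 were used.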

Additional observations from a re-analysis of the deposited data

Results flagged for a closer look

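Cells that met the same rule were found in libraries outside the comparisons of the sorted cells. The whole-lung E18.5 library labelled Cxcl12 homozygous null held 65 such cells, 2.39% of 2721 endothelial cells, and the one labelled heterozygous control held 39, 2.14% of 1824. They were noticed because the rule was written for the sorted libraries, and the comparisons of the sorted cells did not use these 2 libraries. The genotype given by the labels and by the deposited names of these libraries disagree, so no comparison of genotype was made.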

How the results depend on the processing

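No paired analysis was possible because each group had 1 library, and the same lack of replicates left no library to leave out. Of the log2 ratios of named genes under the alternatives, 911 of 1148 at E18.5, 982 of 1148 at P8 and 844 of 936 over time moved by less than counting error, and the causes of the others were not tested. These totals pool settings that changed few cells with settings that changed many. With the limits lifted on both sides, 24 E18.5 ratios stayed within counting error, 57 moved and 1 changed sign. With Car4-zero cells without those limits, 13 stayed and 69 moved. At P8 the same 2 settings left 50 and 48 within counting error. Counts past 2-fold at E18.5 were 100 higher and 70 lower. The lower count was 106 with cells thinned and 177 with a minimum of 20 CPM, and Car4-zero cells without arterial and cycling limits gave 226 and 220. At P8, with 144 higher and 186 lower, cells with a UMI of Ednrb or Apln gave 228 higher. Matching on UMIs per cell gave 322 and 298, thinning 470 and 382, the mean of per-cell CPM 301 and 297, and the minimum of 20 CPM 372 and 612. Over time, with 254 higher and 181 lower, matching gave 400 and 281, thinning 606 and 369, per-cell means 385 higher, and the minimum of 20 CPM 635 and 464. That minimum also raised the genes tested, from 3484 to 6304 at E18.5, 3803 to 6906 at P8 and 3702 to 6629 over time. As shares of these, 2.32% were higher and 2.81% lower at E18.5, 5.39% and 8.86% at P8, and 9.58% and 7% over time. At P8 matching also left 49 cells on each side, and the per-cell mean changed no cell's depth, so these settings do not single out depth. Lifting the limits on both sides, chosen after seeing the data, gave 163 and 140 at E18.5, 84 and 70 at P8, and 844 and 1780 Car4 cells. The rule applied to thinned cells gave 160 cells at P8.

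Some ratios changed sign, mostly of genes whose UMIs came from few cells. With matched UMIs per cell Ager was at 2.06 (E18.5) and 2.18 (P8), Sftpc at 3.30 and Fabp4 at -4.89 at P8, and over time Rbp7 was at -8.67, Fabp4 at -11.50 and Fabp5 at -2.87. With thinning Ager was at 0.99 at P8. Against Car4-zero cells with at least 2 Gpihbp1 UMIs Ager was at 1.39 and 1.49, and at P8 Sftpc was at 2.49, Apoe at 0.64, Fbln5 at 0.35 and Mgp at 0.48. Without the limits on both sides Lpl was at 0.22 at E18.5 and Rbp7 at -1.37 at P8, and over time Rbp7 was at -0.99, Fabp4 at -0.80 and Fabp5 at -0.74. Leaving out cells with type 2 genes, also chosen after seeing the data, put Ager at 1.18 and 1.11 and Sftpc at 0.25 at P8.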

Other observations

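Of the integrins, 2 of 7 tested at E18.5, Itgb5 and Itga3, and 1 of 6 at P8, Itga3, were at least 2-fold higher in Car4 cells, where 2.87% and 3.79% of all genes were. Each of these reached 50 CPM in the Car4 cells alone, so the counts are descriptions. The level of Itgb5 is uncertain because of the end bases it shares with Gm38317. Itga3 was at 95.9 against 33.9 CPM and 74.4 against 28.6 CPM. The surface protein Ly6a was at 920 against 221 CPM and 780 against 245 CPM.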
